A study of Mus musculus with 8 samples.

Results

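The 40 genes described here carry fatty acids into oxidation, break them down in mitochondria and peroxisomes, make and use ketone bodies, or encode the peroxisome proliferator-activated receptors (PPARs). They were taken as a named list, by their gene symbol on the array, out of 26894 genes that the array names, and each was represented by its brightest probe in the deposited table. All 40 gave a signal well above background on every array and were tested. They were compared in pancreatic islets of βUCP2Tg mice, which overexpress *Ucp2* in β-cells, and of wild-type (WT) littermates. The transgene holds a *Ucp2* cDNA behind the rat insulin promoter, so it acts in the insulin-producing cells of an islet that also contains other cell types. The mice were male, on a C57BL6/J background and 8 to 12 weeks of age where the study's methods describe islet isolation, and the isolated islets of both groups stood for 8 h in medium with 200 mg/dL glucose before RNA was taken. There were 4 samples per group, each on 1 one-color array. Whether a sample came from 1 mouse or a pool was not stated in the sources used here, so p-values measure the spread between these samples.

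Fatty acids are taken up, joined to coenzyme A by acyl-CoA synthetases and passed into mitochondria as carnitine esters. Each turn of β-oxidation then shortens the chain and passes electrons to the respiratory chain, through the electron transfer flavoprotein for the first step. Malonyl-CoA, which accumulates when glucose is plentiful, blocks the carnitine step, and β-cells use this switch to couple fuel supply with insulin secretion. The PPARs are nuclear receptors that bind fatty acids, pair with RXR and raise transcription of many of these genes.

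None of the 40 genes passed the threshold of an adjusted p under 0.05 with a fold change over 1.5 in limma, in either direction. Across all 17857 genes tested with 1 probe each, 0.274% passed as higher and 0.207% as lower in the transgenic islets, so few calls could fall on a list of 40. At an unadjusted p under 0.05, 12 members were higher in βUCP2Tg islets (30%, against 12.9% of all genes) and 2 were lower (5%, against 11.6% of all genes). The 12 were *Ppara*, *Crat*, *Cpt2*, *Acadl*, *Eci1*, *Eci2*, *Decr1*, *Acox3*, *Ehhadh*, *Hsd17b4*, *Acaa1a* and *Acot1*, and the 2 were *Acsl4* and *Cpt1b*. Their adjusted p lay between 0.0859 and 0.197. The median log2 fold change (βUCP2Tg minus WT) of the 40 was 0.18, against 0.03 for all genes, and 31 of 40 were above 0 (77.5%, against 54% of all genes). The groups did not overlap for 3 members that were higher (7.5%, against 6.36% of all genes) and 1 that was lower (2.5%, against 6.73%), which is close to the background for the first of these. Most of the differences were small, between 1.17-fold and 1.52-fold among the higher genes other than *Ppara*.

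**Figure D1:**
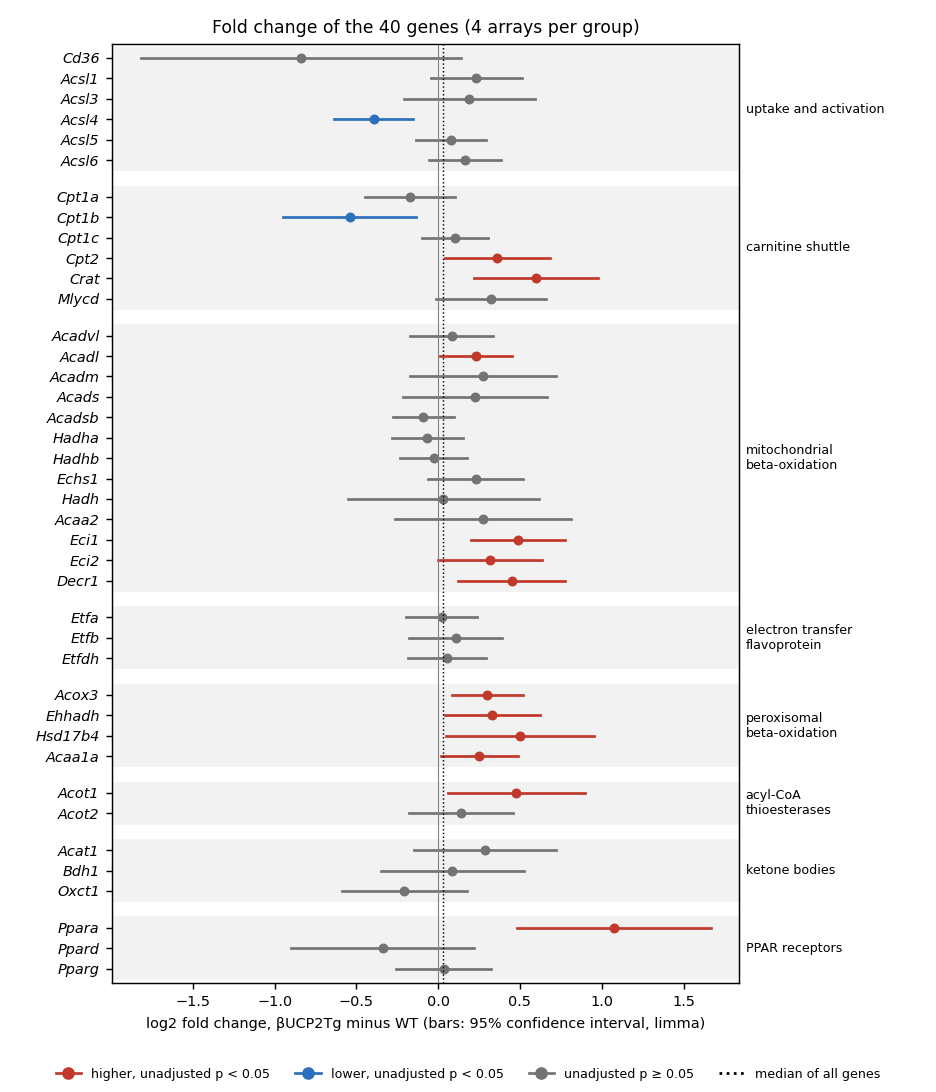
The log2 fold change (βUCP2Tg minus WT, x axis) of each of the 40 genes, grouped by role, with its 95% confidence interval from limma (4 arrays per group) and the median of all genes as a dotted line. *Ppara* lies farthest to the right at 1.08, the 4 peroxisomal genes all lie above 0, and *Cd36*, *Cpt1b*, *Acsl4* and *Ppard* lie farthest to the left.

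A pair of arrays stood apart from the rest of their groups. *Ucp2* itself was at 6.99 to 7.71 on the 4 βUCP2Tg arrays and at 0.92 to 1.46 on the 4 WT arrays (normalized log2 signal, relative to the 75th percentile of each array), so the labels held on every array. A list of 15 hypoxia-response genes, however, had a mean deviation from its own average of -0.87, -0.95, -0.93 and 0.35 on βUCP2Tg replicates 1 to 4 and of -0.05, 0.78, 0.80 and 0.88 on WT replicates 1 to 4. βUCP2Tg replicate 4 and WT replicate 1 therefore lay between the other arrays. The median deviation of the 40 members was 0.14, 0.13, 0.11 and -0.04 on the βUCP2Tg arrays and 0.10, -0.17, -0.25 and 0.01 on the WT arrays. It was lowest on WT replicates 2 and 3, and the same pair of arrays lay toward the other genotype. Of the hypoxia list, 12 of 15 genes were lower in βUCP2Tg islets at an unadjusted p under 0.05, and its summed level was 115 to 197 in βUCP2Tg and 171 to 289 in WT (linear signal, with 1 being the 75th percentile of the array). Acinar markers, which report exocrine tissue carried along with islets, were at a summed level of 11.1 to 189 in βUCP2Tg and 16.7 to 337 in WT, with 13 of 14 tested, all 13 lower in βUCP2Tg with a median log2 fold change of -1.81, none at an unadjusted p under 0.05 and *Ptf1a* not well above background on any array. The part of either list in the values below was not tested. In bulk islets, fewer cells of a type and less RNA per cell cannot be told apart. All 8 arrays lay on 1 slide with a row for each genotype, so slide position and genotype cannot be told apart either.

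**Figure D2:**
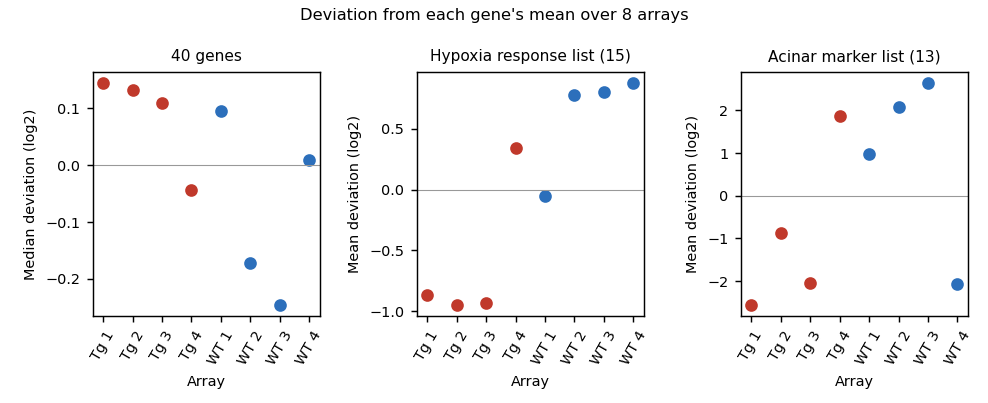
Deviation (log2) of each array from every gene's own mean over the 8 arrays: the median over the 40 genes, the mean over 15 hypoxia-response genes and the mean over 13 acinar markers, with βUCP2Tg arrays in red and WT arrays in blue. βUCP2Tg 4 and WT 1 lie between the other arrays in the hypoxia panel, and WT 2 and WT 3 are lowest for the 40 genes and highest for the acinar markers.

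Without βUCP2Tg replicate 4 and WT replicate 1, 5 members passed the call threshold as higher (*Crat*, *Eci1*, *Decr1*, *Hsd17b4* and *Ppara*) and 2 as lower (*Cpt1b* and *Ppard*). These are 17.5% of the members, against 16% of all probes (6.73% higher and 9.25% lower). Then 19 members were higher at an unadjusted p under 0.05 (47.5%, against 18.4% of all probes). The groups did not overlap for 19 higher members (47.5%, against 21.5%) and 4 lower ones (10%, against 23.6%). Those arrays were singled out because they lay toward the other genotype, so leaving them out raises such counts over the whole array. Shares of all probes count every probe of a gene, whereas each member has 1 probe. With all arrays, 9.99% of all probes were higher and 15.2% lower at an unadjusted p under 0.05. With 1 probe per gene, these shares were 12.9% and 11.6%. Leaving out WT replicate 1 alone gave 3 calls (*Crat*, *Hsd17b4* and *Ppara*; 7.5% of members, against 10.8% of all probes), and leaving out βUCP2Tg replicate 4 alone gave *Ppara* higher and *Cpt1b* lower (5%, against 4.18%). Leaving out any 1 of βUCP2Tg replicates 1 to 3 or WT replicate 3 instead lowered the 12 members higher at an unadjusted p under 0.05 to 6 (15%, against 6.23% to 6.78% of all probes).

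**Figure D3:**
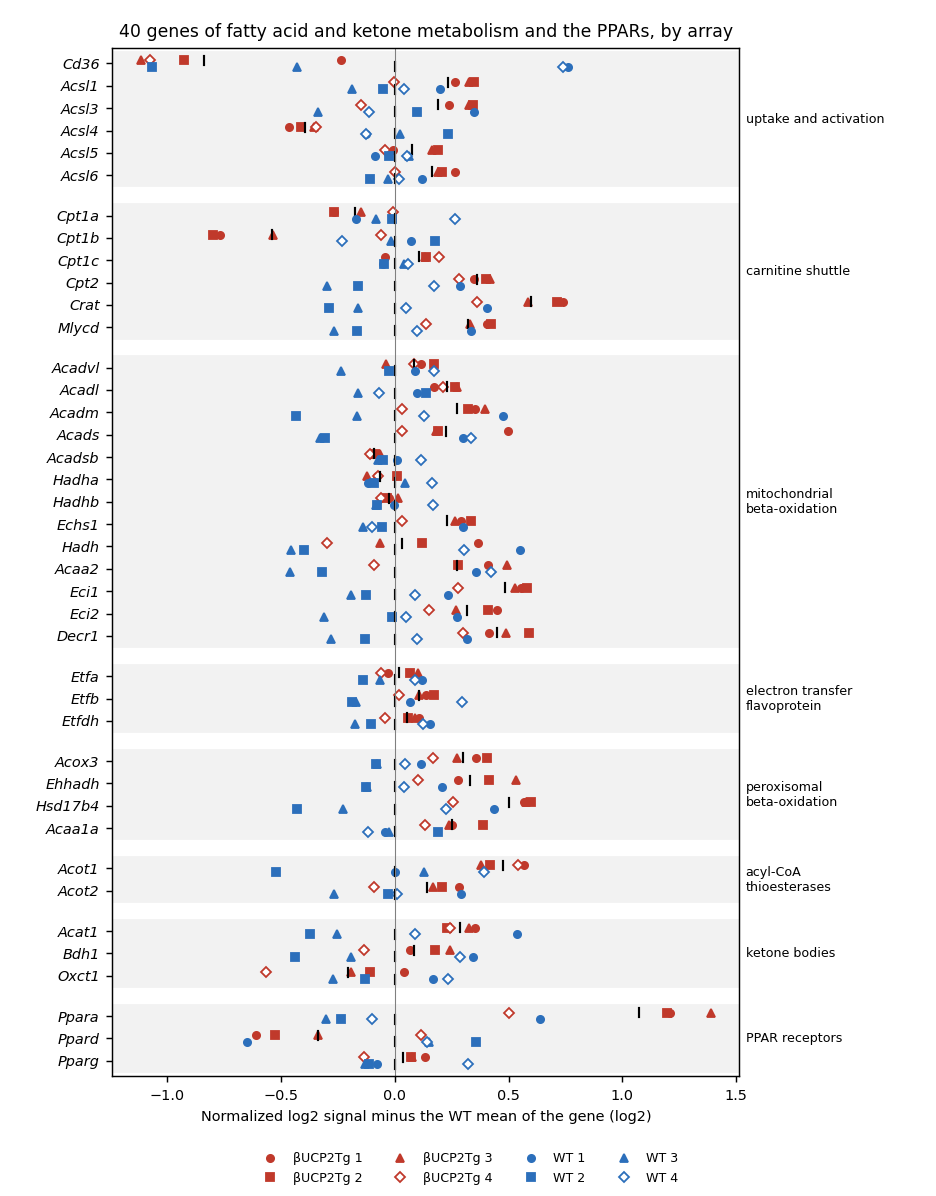
Normalized log2 signal of each array minus the WT mean of the gene (x axis, log2) for the 40 genes, grouped by role, with βUCP2Tg arrays in red, WT arrays in blue, a separate symbol for each replicate and black ticks for group means. WT 2 and WT 3 are the lowest arrays for 8 of the 13 genes of mitochondrial β-oxidation, WT 1 lies within the βUCP2Tg range for 8, and both hold for 5, while *Ppara* shows the widest gap.

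Among the receptors, *Ppara* had the largest difference of the 40 genes. PPARα drives fatty acid oxidation and ketone production in liver and is switched off by glucose in β-cells. Its probe was at -3.33, -3.34, -3.15 and -4.04 on βUCP2Tg replicates 1 to 4 and at -3.90, -4.77, -4.84 and -4.64 on WT replicates 1 to 4. All transgenic arrays but replicate 4 were above every WT array, and βUCP2Tg replicate 4 fell just under WT replicate 1, so the groups overlapped by that pair alone. The mean was -3.46 ± 0.39 in βUCP2Tg and -4.54 ± 0.43 in WT (SD, n = 4 each), a 2.11-fold higher level (log2 fold change 1.08, SE 0.26, 95% interval 0.48 to 1.67; limma p = 0.00292, adjusted p = 0.0859 by Benjamini-Hochberg; exact permutation p = 0.0571). The permutation test was two-sided, of 4 against 4 arrays, where 0.0286 is the smallest p it allows. The signal was dim, and with a normexp background correction that adds an offset the log2 fold change was 0.27.

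A second *Ppara* probe was at -4.44, -5.22, -4.76 and -7.05 in βUCP2Tg and at -5.35, -7.96, -7.52 and -7.60 in WT. It was well above background on 3 βUCP2Tg arrays and on WT replicate 1 alone, the array that was also highest among WT for the first probe. Since WT was measured on that array alone, no fold is given. The probes, shown because the result on the receptor rests on them, share no run of 12 bases or more and so read different stretches of the transcript.
Ppara, probe used: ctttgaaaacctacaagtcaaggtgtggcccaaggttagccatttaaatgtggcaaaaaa
Ppara, second probe: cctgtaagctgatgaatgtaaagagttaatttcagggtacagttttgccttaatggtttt

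*Ppard*, the receptor expressed in most tissues, was at 1.70, 1.78, 1.97 and 2.42 in βUCP2Tg and at 1.65, 2.66, 2.46 and 2.45 in WT. Here WT replicate 1 was the lowest of all 8 arrays and βUCP2Tg replicate 4 was the highest of its group. The log2 fold change was -0.34 (SE 0.24, adjusted p = 0.412), and it became -0.71 (adjusted p = 0.0102) without those 2 arrays. *Pparg*, best known for fat cell differentiation, was at 2.27, 2.21, 2.21 and 2.004 in βUCP2Tg and at 2.06, 2.03, 2.01 and 2.46 in WT. The groups overlapped fully and the log2 fold change was 0.04 (95% interval -0.26 to 0.33, adjusted p = 0.885). Whether the difference of *Ppara* exceeded that of *Ppard* or *Pparg* was not tested.

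**Figure D4:**
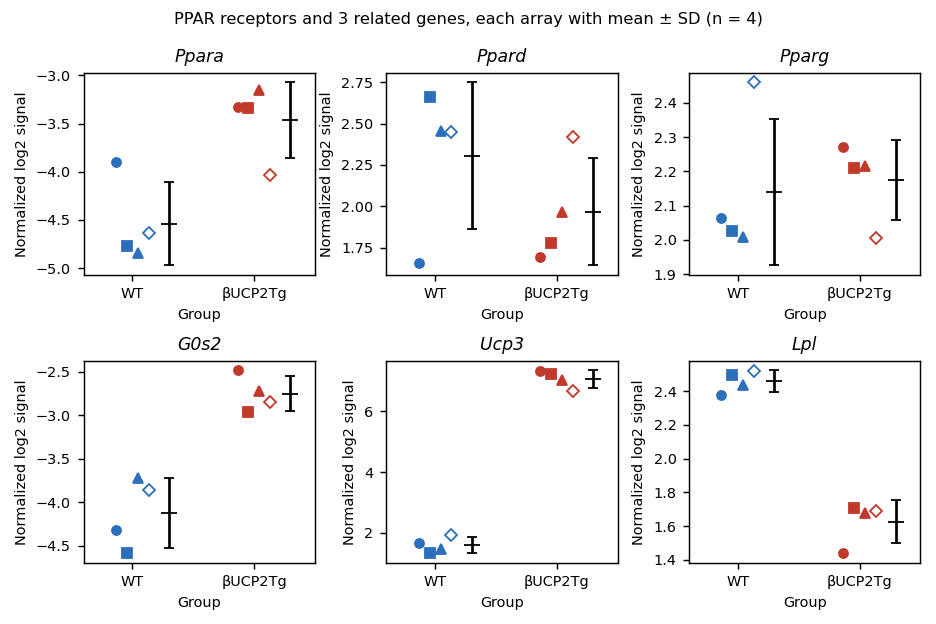
Normalized log2 signal (y axis) of the 3 PPAR receptors and of *G0s2*, *Ucp3* and *Lpl* on each array of WT and βUCP2Tg islets, with a separate symbol for each replicate and mean ± SD (n = 4) in black. The groups overlap for the receptors and do not for the other 3 genes, and βUCP2Tg 4 (open red) is the lowest *Ppara* and the highest *Ppard* of its group.

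Of the 6 uptake and activation genes, only *Acsl4* stood at an unadjusted p under 0.05. ACSL4 activates long polyunsaturated fatty acids such as arachidonate. It was at 2.78, 2.84, 2.89 and 2.90 in βUCP2Tg and at 3.12, 3.48, 3.27 and 3.12 in WT. Every transgenic array was below every WT array, WT replicate 1 included. The level was 1.32-fold lower in βUCP2Tg (log2 fold change -0.40, SE 0.11; limma p = 0.0052, adjusted p = 0.0953; exact permutation p = 0.0286, the smallest possible). The other *Acsl4* probes gave -0.54 and -0.51, but on both the groups overlapped, with WT replicate 1 inside the transgenic range. They overlap each other by 37 bases, in capitals, and so are not separate measurements, while the probe used shares no run of 12 bases with them.
Acsl4, probe used: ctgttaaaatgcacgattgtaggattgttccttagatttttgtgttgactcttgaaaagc
Acsl4, second probe: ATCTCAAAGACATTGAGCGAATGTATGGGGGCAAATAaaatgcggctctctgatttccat
Acsl4, last probe: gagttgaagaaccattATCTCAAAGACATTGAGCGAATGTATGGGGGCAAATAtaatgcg

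The other synthetases, *Acsl1*, *Acsl3*, *Acsl5* and *Acsl6*, had log2 fold changes of 0.23, 0.19, 0.08 and 0.17, with overlapping groups. A second *Acsl1* probe gave 0.24 with groups that did not overlap, and a second *Acsl3* probe gave -0.33 (adjusted p = 0.324) with groups that did. *Cd36*, a fatty acid translocase found on endothelial cells, macrophages and fat cells, was dim and varied most of all. It was at -4.30, -4.99, -5.18 and -5.14 in βUCP2Tg and at -3.31, -5.14, -4.50 and -3.33 in WT. Its log2 fold change was -0.84 (95% interval -1.82 to 0.14, adjusted p = 0.256), with WT replicates 2 and 3 among the transgenic arrays.

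In the carnitine shuttle, *Crat* and *Cpt2* had higher means and *Cpt1b* a lower mean in βUCP2Tg islets. Carnitine acetyltransferase, the product of *Crat*, moves acetyl groups between coenzyme A and carnitine. *Crat* was at 0.71, 0.68, 0.56 and 0.33 in βUCP2Tg and at 0.37, -0.32, -0.19 and 0.02 in WT. Only WT replicate 1 reached into the transgenic range, just above βUCP2Tg replicate 4. The level was 1.52-fold higher (log2 fold change 0.60, SE 0.17; limma p = 0.00624, adjusted p = 0.0992; exact permutation p = 0.0571). A second probe was well above background on 1 WT array only, so no fold is given for it. *Crat* was called with the normexp correction (log2 fold change 0.65, adjusted p = 0.0335), under which 2.31% of all probes were called.

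*Cpt2*, the inner-membrane transferase that returns acyl groups to coenzyme A, was at 3.49, 3.54, 3.56 and 3.42 in βUCP2Tg and at 3.43, 2.98, 2.84 and 3.31 in WT. Its transgenic arrays lay within a narrow band that only WT replicate 1 entered (log2 fold change 0.36, adjusted p = 0.16), and its second probe gave 0.39 with no overlap. *Cpt1b*, the muscle form of the outer-membrane transferase, was at -3.97, -4.00, -3.74 and -3.26 in βUCP2Tg and at -3.13, -3.03, -3.22 and -3.44 in WT. βUCP2Tg replicate 4 lay within the WT range and the other 3 below it (log2 fold change -0.54, adjusted p = 0.125; -0.29 with the normexp correction). The main islet form *Cpt1a*, the step that malonyl-CoA blocks, gave -0.17 (95% interval -0.45 to 0.10) and the brain form *Cpt1c* gave 0.10. *Mlycd*, which removes malonyl-CoA, gave 0.32 (95% interval -0.01 to 0.66, adjusted p = 0.213), with WT replicates 2 and 3 lowest again.

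Of the 13 genes of mitochondrial β-oxidation, 4 were at an unadjusted p under 0.05, all of them higher. *Eci1*, *Eci2* and *Decr1*, the auxiliary enzymes that reshape the double bonds of unsaturated fatty acids, were 3 of them. *Eci1* was at 1.87, 1.90, 1.85 and 1.60 in βUCP2Tg and at 1.55, 1.19, 1.13 and 1.40 in WT. All transgenic arrays were above all WT arrays, with βUCP2Tg replicate 4 and WT replicate 1 the closest pair (1.40-fold, log2 fold change 0.49, SE 0.13; limma p = 0.00433, adjusted p = 0.0903; exact permutation p = 0.0286).

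*Decr1*, a dienoyl-CoA reductase, was at 2.60, 2.77, 2.67 and 2.48 in βUCP2Tg and at 2.50, 2.05, 1.90 and 2.28 in WT (log2 fold change 0.45, SE 0.14, adjusted p = 0.118). Again only WT replicate 1 and βUCP2Tg replicate 4 crossed. *Eci2*, whose product is found in peroxisomes as well, was at 4.53, 4.49, 4.35 and 4.23 in βUCP2Tg and at 4.36, 4.07, 3.77 and 4.13 in WT (log2 fold change 0.32, adjusted p = 0.197), and WT replicate 1 lay inside the transgenic range.

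In the main β-oxidation spiral, the other of the 4 was the long-chain dehydrogenase *Acadl*. It was at 1.57, 1.66, 1.67 and 1.61 in βUCP2Tg and at 1.49, 1.53, 1.23 and 1.33 in WT. The groups did not overlap, but the difference was 1.17-fold (log2 fold change 0.23, 95% interval 0.01 to 0.45, adjusted p = 0.185). The very-long-, medium- and short-chain dehydrogenases *Acadvl*, *Acadm* and *Acads* gave 0.08, 0.28 and 0.23, and *Acadsb*, which acts on branched chains, gave -0.09. The subunits of the trifunctional protein, *Hadha* and *Hadhb*, gave -0.07 and -0.03. The later steps gave 0.23 for the hydratase *Echs1*, 0.03 for *Hadh*, which also restrains glutamate dehydrogenase in β-cells, and 0.27 for the thiolase *Acaa2*. For *Acadm*, *Acads*, *Hadh* and *Acaa2*, WT replicates 2 and 3 were the lowest WT arrays and WT replicate 1 lay within or above the transgenic range, so the groups overlapped. The electron transfer flavoprotein genes *Etfa*, *Etfb* and *Etfdh* gave 0.02, 0.11 and 0.05, and none of their intervals reached 0.40 in either direction.

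All 4 peroxisomal genes were higher in βUCP2Tg islets at an unadjusted p under 0.05 by the probe used, although for *Acox3* the average of its tested probes was -0.089. Peroxisomes shorten very long and branched fatty acids before mitochondria take them. *Acox3*, an oxidase for branched chains, was at 0.39, 0.44, 0.31 and 0.20 in βUCP2Tg and at 0.15, -0.05, -0.04 and 0.08 in WT. The groups did not overlap (1.23-fold, log2 fold change 0.30, SE 0.09; limma p = 0.0122, adjusted p = 0.116; exact permutation p = 0.0286). Its other RefSeq probe gave 0.09.

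The bifunctional enzymes *Ehhadh* and *Hsd17b4* carry out the middle steps. *Hsd17b4* was at 2.11, 2.15, 2.13 and 1.80 in βUCP2Tg and at 1.98, 1.12, 1.32 and 1.77 in WT (log2 fold change 0.50, adjusted p = 0.166). WT replicates 2 and 3 were far below the other 6 arrays. *Ehhadh*, a classical PPARα target, was at -1.04, -0.90, -0.78 and -1.21 in βUCP2Tg and at -1.11, -1.44, -1.43 and -1.27 in WT (log2 fold change 0.33, adjusted p = 0.157; 0.23 with the normexp correction, where p was 0.05). Only WT replicate 1 exceeded a transgenic array. The thiolase *Acaa1a* was at 4.95, 5.08, 4.93 and 4.83 in βUCP2Tg and at 4.65, 4.89, 4.67 and 4.58 in WT (log2 fold change 0.25, adjusted p = 0.173), with WT replicate 2 inside the transgenic range. *Acaa1a* has a near-identical neighbor, *Acaa1b*, so its probe may read both.

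The thioesterases release fatty acids from coenzyme A. *Acot1*, the cytosolic form, was at -2.22, -2.37, -2.41 and -2.25 in βUCP2Tg and at -2.79, -3.31, -2.66 and -2.40 in WT. The transgenic arrays were tightly grouped and WT replicate 4 touched their range (log2 fold change 0.48, SE 0.18, adjusted p = 0.159; 0.18 with the normexp correction, where it was no longer at an unadjusted p under 0.05). The mitochondrial form *Acot2* gave 0.14, and since the genes are near-identical neighbors their probes may share signal.

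No difference reached an unadjusted p under 0.05 among the ketone body genes. *Acat1*, which condenses acetyl-CoA, gave 0.29 (95% interval -0.15 to 0.72), *Bdh1*, which interconverts acetoacetate and β-hydroxybutyrate, gave 0.09 (-0.35 to 0.52), and *Oxct1*, which reactivates acetoacetate for oxidation, gave -0.21 (-0.59 to 0.17). A second *Oxct1* probe gave 0.02.

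Of the 40 genes, 21 had more than 1 tested probe, and for 6 of them (*Acsl3*, *Eci2*, *Etfa*, *Etfdh*, *Acox3* and *Oxct1*) the probes lay on both sides of 0. The deposited table describes each probe by the transcript it was designed to. Among the members' tested probes, 60 were designed to a RefSeq mRNA, with a median log2 fold change of 0.13, and 7 to an Ensembl transcript, with a median of -0.62. *Hadhb* shows the contrast. Its probe used here was at 3.65, 3.64, 3.69 and 3.62 in βUCP2Tg and at 3.67, 3.60, 3.59 and 3.85 in WT, whereas its Ensembl probe was at -2.08, -2.32, -1.86 and -1.63 in βUCP2Tg and at -1.36, -0.94, -0.80 and -1.47 in WT. The first did not separate the groups, and the second was lower on every transgenic array (log2 fold change -0.83, SE 0.20, adjusted p = 0.0868). An Ensembl probe of *Eci2* gave -0.64 where the RefSeq probes gave 0.32 and 0.41. Those of *Acox3* gave -0.73 and -0.018 where the RefSeq probes gave 0.30 and 0.09. The Ensembl probe of *Acadsb* gave -0.62, and its RefSeq probes gave -0.09 and -0.23, also below 0. The groups did not overlap for its Ensembl probe and for the RefSeq probe at -0.23. These genes were singled out after their values were seen. The probes are shown because the direction (*Eci2* and *Acox3*) or the size (*Hadhb*) turns on which is read, and within a gene they share no run of 12 bases.
Hadhb, probe used: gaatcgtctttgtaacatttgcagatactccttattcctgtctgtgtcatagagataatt
Hadhb, Ensembl transcript: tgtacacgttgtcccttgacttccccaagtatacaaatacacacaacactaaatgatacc
Eci2, probe used: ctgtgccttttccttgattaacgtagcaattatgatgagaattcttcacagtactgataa
Eci2, Ensembl transcript: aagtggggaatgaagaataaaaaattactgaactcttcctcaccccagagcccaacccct
Acox3, probe used: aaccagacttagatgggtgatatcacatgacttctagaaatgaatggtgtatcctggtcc
Acox3, Ensembl transcript: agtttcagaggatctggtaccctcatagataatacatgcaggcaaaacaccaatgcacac

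The same lean was present over the whole array. Among genes with a tested RefSeq mRNA probe, 3585 Ensembl probes had a median log2 fold change of -0.25, with 29.1% lower and 3.74% higher at an unadjusted p under 0.05. The 22254 RefSeq mRNA probes had a median of 0.01, with 12.8% lower and 12.3% higher. The lean was -0.28, -0.29, -0.16 and -0.05 in 4 equal bins of probes from the dimmest to the brightest, against 0.01, 0.02, 0.03 and -0.01 for RefSeq probes. Of the members' 7 Ensembl probes, 6 were below 0 (85.7%), against 73.5% of all Ensembl probes. When all tested probes of a gene were averaged, the log2 fold change of *Acox3* turned to -0.089 and that of *Eci2* became 0.03.

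**Figure D5:**
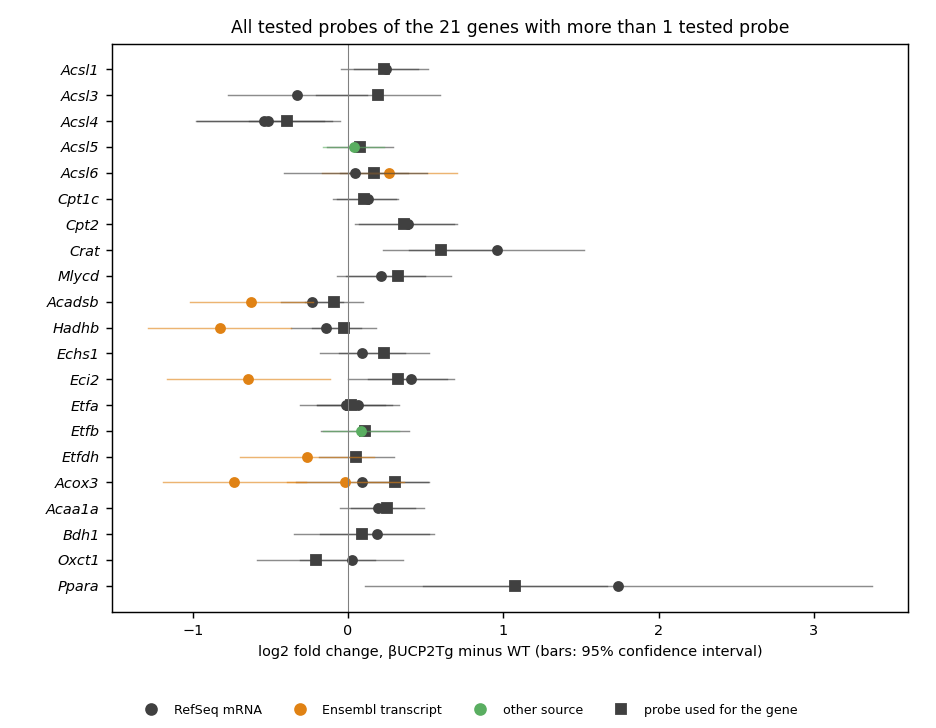
The log2 fold change (βUCP2Tg minus WT, x axis, with 95% confidence intervals) of every tested probe of the 21 genes with more than 1 tested probe, colored by the source of the probe's design, with squares for the probe used. The Ensembl probes (orange) of *Acadsb*, *Hadhb*, *Eci2*, *Etfdh* and *Acox3* lie to the left of the RefSeq probes of the same gene, and that of *Acsl6* lies to the right. The second probes of *Crat* and *Ppara* were well above background on 1 WT array only.

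Other genes of the pathway were taken from 5 lists outside the 40, with 69 of 81 genes on the array tested. Of these, 21 were higher (30.4%, against 12.9% of all genes) and 11 lower (15.9%, against 11.6%) at an unadjusted p under 0.05, with a median log2 fold change of 0.15. A call was made for 2 as higher (*Ucp3* and *G0s2*; 2.9%, against 0.274%) and for 1 as lower (*Lpl*; 1.45%, against 0.207%). The lists were drawn up with earlier results of these data known. Among 31 further oxidation genes tested, 9 were higher (29%) and 5 lower (16.1%) and none was called. *Acad10*, an acyl-CoA dehydrogenase family member, was at -1.79 to -1.77 on all βUCP2Tg arrays and at -2.37 to -1.98 in WT, with no overlap (log2 fold change 0.44, adjusted p = 0.0823). *Acacb*, the mitochondrial acetyl-CoA carboxylase that makes the malonyl-CoA acting on the carnitine step, gave -1.21 (adjusted p = 0.0895), and its groups overlapped only through βUCP2Tg replicate 4 and WT replicate 1. *Echdc2*, an enoyl-CoA hydratase family member, was at 3.66 to 4.05 in βUCP2Tg and at 4.16 to 4.43 in WT, with no overlap (log2 fold change -0.41, adjusted p = 0.0995). *Decr2*, the peroxisomal dienoyl-CoA reductase, was named after its values were seen. It gave -0.46 (adjusted p = 0.103) with overlapping groups, the opposite sign to the 4 peroxisomal genes above.

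Among the 11 uptake genes tested, *Lpl* was called lower. Lipoprotein lipase frees fatty acids from circulating triglyceride. *Lpl* was at 1.44, 1.71, 1.68 and 1.69 in βUCP2Tg and at 2.38, 2.50, 2.44 and 2.52 in WT. The gap between the groups was wider than either group, and βUCP2Tg replicate 4 and WT replicate 1 lay with their own genotype (1.78-fold lower, log2 fold change -0.83, SE 0.09, limma adjusted p = 0.0231; up to 0.118 with any 1 array other than these left out). The fatty acid transporter *Slc27a2* gave 1.53 (adjusted p = 0.102) and the lipid carrier *Fabp4* -0.66 (adjusted p = 0.0885), both with no overlap. *Lpl* is also made by fat cells and macrophages, and *Fabp4* and *Cd36* by these cells and by endothelium. The summed level of 10 macrophage markers was 18.1 to 22.5 in βUCP2Tg and 24.4 to 30.1 in WT, with 3 lower and 1 higher at an unadjusted p under 0.05 and *Cd14* called lower (log2 fold change -2.10, adjusted p = 0.048; called in 10 of 19 alternatives). That of 10 endothelial markers was 39.9 to 49.3 and 44.6 to 61.2, with 3 higher and 2 lower. For fat cells, 5 of 9 markers were tested, with a summed level of 2.05 to 2.64 and 2.57 to 3.56, 1 of them (*Fabp4* itself) lower at an unadjusted p under 0.05. The other 4 summed to 0.958 to 1.12 in βUCP2Tg and 0.929 to 1.45 in WT, and *Plin1*, *Cfd* and *Adrb3* were not well above background on any array. The part of these cells in the 3 genes was not tested.

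Among 16 PPAR target genes tested, 6 were higher (37.5%) and 2 lower (12.5%) at an unadjusted p under 0.05, and *Ucp3* and *G0s2* were called higher. *Ucp3* was at 7.33, 7.22, 7.01 and 6.68 in βUCP2Tg and at 1.68, 1.33, 1.48 and 1.94 in WT (log2 fold change 5.45, adjusted p = 1.52e-05). Its values followed the same order as those of *Ucp2* on all 8 arrays. *Ucp3* lies next to *Ucp2* in the genome, but the transgene holds a *Ucp2* cDNA rather than that region. The paper reports *Ucp2* as the main UCP transcript of mouse islets. Whether the *Ucp3* probe reads transcript of the transgene was not tested. The counts of higher and called genes in this list, and in the lists together, include *Ucp3*. *G0s2*, an inhibitor of triglyceride lipase, was at -2.48, -2.96, -2.72 and -2.85 in βUCP2Tg and at -4.32, -4.59, -3.72 and -3.86 in WT. All transgenic arrays were above all WT arrays (2.59-fold, log2 fold change 1.37, SE 0.21, limma adjusted p = 0.0456; up to 0.174 with 1 array left out, and 0.51 on the log2 scale with the normexp correction).

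*Fgf21*, a hormone of the fasting response, was at -1.93, -2.33, -2.23 and -2.90 in βUCP2Tg and at -3.16, -4.47, -4.45 and -5.32 in WT, with no overlap but an adjusted p of 0.0723 (log2 fold change 2.01). *Angptl4*, which inhibits lipoprotein lipase and also responds to hypoxia, gave -1.60 (adjusted p = 0.159), with βUCP2Tg replicate 4 above WT replicate 1.

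Of 13 partner genes of the PPARs tested, 3 were higher (23.1%) and 1 lower (7.69%) at an unadjusted p under 0.05. *Rxra*, which encodes the receptor's dimer partner, gave 0.35 with no overlap (adjusted p = 0.132), and *Creb3l3*, a fasting transcription factor, gave 1.13 (adjusted p = 0.114). *Ppargc1a*, the coactivator of the PPARs and of mitochondrial biogenesis, was at -2.04, -2.18, -2.11 and -1.11 in βUCP2Tg and at -0.81, -0.70, -0.39 and -0.38 in WT. The groups did not overlap, and βUCP2Tg replicate 4 was the nearest to WT (log2 fold change -1.29, adjusted p = 0.0635). Of the other ketone body genes, 4 of 8 on the array were tested. *Aacs*, which activates acetoacetate in the cytosol, gave 0.36 (adjusted p = 0.114), and the ketone and lactate transporter *Slc16a1*, which β-cells normally keep low, gave -1.15 (adjusted p = 0.109).

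The members' promoters were searched for the sequence to which a PPAR and RXR bind as a pair, AGGTCANAGGTCA on either strand, in windows from 250 bases before to 50 bases after the transcription start in RefSeq (GRCm38.p6). Windows were given for 34 of the 40 genes, 40 windows in all. None held the full element, against 0.0396% of 32851 windows of the same length. The element is so rare that its absence from 40 windows says nothing about these genes. The hexamer AGGTCA, contained in the full element, was found in 9 of 40 windows (22.5%, against 16.3% of all windows), those of *Acadm*, *Cd36*, *Pparg*, *Cpt1c*, *Echs1*, *Acsl6*, *Acadvl* and *Cpt1a*. None of these 8 genes is among the 12 that were higher at an unadjusted p under 0.05, of which 9 had a window. With a background of 16.3%, 9 genes are too few to read a difference from this. A match describes letters only, and its absence says nothing of sites elsewhere. The window of *Cpt1a* is shown because this gene, the carnitine step that malonyl-CoA controls, is a known PPAR target, with the hexamer in capitals on the opposite strand, at chr19:3323051-3323350 on the plus strand.
Cpt1a promoter: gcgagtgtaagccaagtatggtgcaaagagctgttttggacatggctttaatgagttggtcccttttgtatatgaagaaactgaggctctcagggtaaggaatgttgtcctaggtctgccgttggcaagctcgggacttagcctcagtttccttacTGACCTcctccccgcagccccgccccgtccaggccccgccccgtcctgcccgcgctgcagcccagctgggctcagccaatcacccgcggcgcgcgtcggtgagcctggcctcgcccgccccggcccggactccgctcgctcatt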

How the data were processed

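Islet RNA of 4 βUCP2Tg and 4 WT samples was labeled with Cy3 and hybridized to Agilent mouse 60-mer arrays. The authors processed each scan with Agilent Feature Extraction (version 9.1 in the submitters' processing notes, 10.7.3.1 in the file headers, build mm9), which gives a background-subtracted intensity per spot on a linear scale. The deposited GeneSpring table holds log2 values shifted to the 75th percentile of each array. It also holds the authors' own fold change (a ratio between groups) and p-value columns, which were not used. The number of arrays limits the precision, and columns of other samples were absent.

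Spot intensities were put on the log2 scale without control or outlier spots, each array was centered on its 75th percentile, and repeated spots were averaged per probe. For a probe to count as measured on an array, at least 50% of the remaining spots had to be flagged well above background. Probes measured on 4 or more of 8 arrays were tested (35363 of 56605). Groups were compared with limma 3.58.1 in R 4.3.3, and p was adjusted by Benjamini-Hochberg over all tested probes. A call needed an adjusted p under 0.05 and a fold over 1.5. Levels of different probes were not compared, other than to pick the brightest probe of a gene and to bin probes by signal. The fit was tested on simulated data. Figures were drawn with matplotlib 3.10.9 in Python 3.11.15.

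The members, lists and tests were chosen with earlier results of these data known. Named were members at an unadjusted p under 0.05, members whose groups did not overlap, the 3 receptors, and other list genes that were called or among the 3 of a list with the smallest p; *Cd36*, *Angptl4*, *Decr2*, second probes and the Ensembl probes were added after their values were seen. Alternatives were other filters, scalings, background corrections, the deposited log2 values, a replicate block and leaving out arrays. The comparison of Ensembl and RefSeq probes and its alternatives were added after seeing the data. Same-numbered arrays did not deviate together for every number, so the numbers were not used as pairs.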

Additional observations from a re-analysis of the deposited data

Results flagged for a closer look

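In groups of 4, an array was singled out when its gap to the nearest other array exceeded Dixon's 95% critical value as a share of the group's range. Of 80 groups examined (40 genes in each genotype), 3 had such an array, where chance alone gives about 4 (1 in 20). *Hsd17b4* on βUCP2Tg replicate 4 was at 1.80, below the other transgenic arrays at 2.11 to 2.15 (gap 0.9 of the range). *Eci1* on the same array was at 1.60, below the others at 1.85 to 1.90 (0.8296). *Pparg* on WT replicate 4 was at 2.46, above the other WT arrays at 2.01 to 2.06 (0.8799).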

How the results depend on the processing

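With all 8 arrays kept, no member was called under any of the alternatives except the normexp correction, which called *Crat* (1 higher; 2.31% of all probes were called). Shares of all probes in this section count every probe of a gene, whereas each member has 1 probe. Members whose groups did not overlap numbered 6 higher (15%, against 6.81% of all probes) with quantile normalization, 6 higher and 2 lower (6.2% and 6.29% of all probes) with the percentile over probes measured on all arrays, 6 higher and 3 lower (3.83% and 17.1%) with normexp, and 5 higher and 2 lower (6.1% and 7.72% of genes) with all tested probes of a gene averaged. That average also gave 4 lower at an unadjusted p under 0.05 (14.3% of genes) and turned *Acox3* to -0.089 (log2). The Ensembl probes' median was -0.19 with quantile normalization, -0.22 with normexp and -0.23 with the deposited values, against 0.06, -0.05 and 0.03 for RefSeq mRNA probes. These were chosen after seeing the data.

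Leaving out each array in turn gave 0 to 3 members called higher and 0 to 1 lower (0.0228% to 5.14% and 0% to 5.67% of all probes), 6 to 15 higher and 2 to 3 lower at an unadjusted p under 0.05 (6.23% to 16.8% and 9.87% to 18.4%), and 3 to 13 higher and 1 to 2 lower with no overlap (5.68% to 14.7% and 7.87% to 16.5% of all probes). The 6 came without βUCP2Tg replicate 1, 2 or 3 or WT replicate 3. The median log2 fold change stayed between 0.12 and 0.24. *Pparg*, near 0, ranged from -0.0084 without WT replicate 3 to 0.14 without WT replicate 4 and was -0.0025 without WT replicate 2. With βUCP2Tg replicate 4 and WT replicate 1 both left out, 5 members were called higher and 2 lower, 19 were higher at an unadjusted p under 0.05, and 19 higher and 4 lower did not overlap (21.5% and 23.6% of all probes). The cause of these shifts was not tested.

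Same-numbered arrays deviated together only for number 1 (r = 0.437, against -0.0466, -0.00864 and -0.241), so they share only a number. With a replicate block, no member was called and 8 were higher and 3 lower at an unadjusted p under 0.05 (9.11% and 13.2% of all probes). For 16 named members over 20 alternatives, 304 of 320 values kept their direction and their side of the threshold, 13 passed it and 3 turned sign. Of the called genes outside the 40, over 19 alternatives, *Ucp3* was called in all 19, *Lpl* in 11, *G0s2* in 10 and *Cd14* in 10. *Lpl* kept a log2 fold change of -0.88 to -0.77, and the last 3 lost the call with no filter on low values (adjusted p = 0.0623 for *Lpl*), with the replicate block (0.107 for *Lpl*) and without any 1 of βUCP2Tg replicates 1 to 3 or WT replicates 2 to 4. *G0s2* was also lost with normexp, at 0.51 and a fold under 1.5, and *Cd14* with quantile normalization. Dim probes such as *Ppara* and *Cpt1b* depend on the background correction.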
